A study of Mus musculus with 36 samples.

Results

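The MPP3-GMP regions were 915 of 105005 accessible regions (0.871%) in mouse hematopoietic stem and progenitor cells, found by assay for transposase-accessible chromatin with sequencing (ATAC-seq). They were chosen by their peak calls. The peak lists of the 36 libraries were joined into regions wherever peaks shared 1 bp or more, and a region was a member when it was called in 2 or more of the 4 MPP3 libraries, in 2 or more of the 4 GMP libraries, and in none of the 16 libraries of HSCs, MEPs and CLPs. Calls in MPP1, MPP2 and MPP4 played no part in the choice. The calls in MPP3, GMP, HSC, MEP and CLP that made the choice are therefore compared between fractions as a description, without a test. The rule did not use age, since it counted young and aged libraries alike.

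Each fraction was sorted from bone marrow of young mice at an age of 10 weeks or aged mice at 20 months, and the labels gave no genotype or treatment. There were 4 HSC libraries and 2 libraries of any other fraction at each age, each made from 20000 cells. The study describes marrow that was pooled and then sorted in duplicate, and calls the replicates biological. The p-values measure the spread between these samples, part of which may be technical. A call means that the authors' peak list held a peak there, and a region without a call may still be accessible below that threshold. The methods state that mapped reads were subsampled to the same number in all samples; that number is not in the peak lists, so the depth behind a call is unknown. MEP lists were short (9581 to 11041 peaks against 27087 to 63288 in the other fractions), so absence from MEPs was a weak criterion.

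MPP3 cells are the multipotent progenitors with a bias towards the myeloid lineage, and granulocyte-macrophage progenitors (GMPs) are the committed progenitors of neutrophils and monocytes. MPP1 lies close to the stem cell, MPP2 is biased towards megakaryocytes and erythrocytes, and MPP4 is primed towards lymphocytes, while MEPs, the megakaryocyte-erythrocyte progenitors, and CLPs, the common lymphoid progenitors, belong to the other lineages. Enhancers of myeloid genes open stepwise on this path and are bound by PU.1, RUNX1 and the C/EBP factors, of which C/EBPα is required to form GMPs. The AP-1 dimers of the FOS and JUN families, which respond to cytokines and stress, and the GATA factors of stem cells and the erythroid, megakaryocyte and mast cell lineages bind other enhancers of these cells.

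The sequences that follow show what such regions hold. Each reaches 100 bases to either side of the median summit, on the forward strand of GRCm38 (mm10), with capitals for every match on either strand to the C/EBP motif TTGCNNAA or the AP-1 motif TGANTCA. The first 4 regions were the strongest among those called in all 8 MPP3 and GMP libraries, and the next 4, near genes of the myeloid lists, came first by the number of MPP3 and GMP libraries with a call and then by the median fold enrichment over those libraries.
Ppm1a region, chr12:72731762-72731962: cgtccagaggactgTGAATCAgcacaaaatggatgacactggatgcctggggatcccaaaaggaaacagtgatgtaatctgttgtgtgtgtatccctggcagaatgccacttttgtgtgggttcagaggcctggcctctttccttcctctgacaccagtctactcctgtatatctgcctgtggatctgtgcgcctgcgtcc
Bahcc1 region, chr11:120219018-120219218: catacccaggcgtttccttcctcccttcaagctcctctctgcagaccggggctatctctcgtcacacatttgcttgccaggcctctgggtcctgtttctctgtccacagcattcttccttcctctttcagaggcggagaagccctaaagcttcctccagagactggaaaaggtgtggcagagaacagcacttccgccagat
Slc24a3 region, chr2:145188937-145189137: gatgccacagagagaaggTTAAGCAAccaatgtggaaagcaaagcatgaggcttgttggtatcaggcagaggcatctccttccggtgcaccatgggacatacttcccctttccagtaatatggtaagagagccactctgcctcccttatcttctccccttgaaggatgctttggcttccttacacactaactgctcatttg
Poc1b region, chr10:99081674-99081874: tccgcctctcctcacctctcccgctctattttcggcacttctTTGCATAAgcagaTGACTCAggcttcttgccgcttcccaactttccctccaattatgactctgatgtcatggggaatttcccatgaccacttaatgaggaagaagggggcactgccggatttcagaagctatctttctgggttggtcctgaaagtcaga
Irf8 region, chr8:120792781-120792981: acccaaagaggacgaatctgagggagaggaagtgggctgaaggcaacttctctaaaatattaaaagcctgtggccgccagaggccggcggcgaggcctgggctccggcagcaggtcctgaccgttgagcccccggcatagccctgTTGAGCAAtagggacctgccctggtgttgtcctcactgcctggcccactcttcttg
Itgam region, chr7:128050805-128051005: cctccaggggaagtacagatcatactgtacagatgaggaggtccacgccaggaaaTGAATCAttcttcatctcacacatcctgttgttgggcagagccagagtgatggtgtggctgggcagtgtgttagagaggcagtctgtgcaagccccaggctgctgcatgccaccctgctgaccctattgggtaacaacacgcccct
Ctsc region, chr7:88243159-88243359: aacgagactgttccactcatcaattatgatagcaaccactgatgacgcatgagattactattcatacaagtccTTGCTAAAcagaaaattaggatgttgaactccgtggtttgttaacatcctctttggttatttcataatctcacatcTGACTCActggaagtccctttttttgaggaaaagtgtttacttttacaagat
Tlr2 region, chr3:83845250-83845450: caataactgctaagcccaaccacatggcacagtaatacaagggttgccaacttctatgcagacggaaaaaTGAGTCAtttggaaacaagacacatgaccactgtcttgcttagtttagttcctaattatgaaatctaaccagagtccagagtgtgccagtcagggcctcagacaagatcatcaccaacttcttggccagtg

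The Poc1b and Ctsc windows held both motifs, those of Slc24a3 and Irf8 a C/EBP motif alone, and those of Ppm1a, Itgam and Tlr2 an AP-1 motif alone. The Bahcc1 window held neither, but held the PU.1/ETS motif GAGGAAG and the shorter ETS core GGAAGT, which share the letters GGAAG.

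Before the results, the MPP3 libraries have to be described, because the replicates did not contribute equally. Young MPP3 replicates 1 and 2 called 376 (41.1%) and 791 (86.4%) of the members, and aged MPP3 replicates 1 and 2 called 281 (30.7%) and 738 (80.7%). In both ages replicate 2 was the higher. The lists held 34432, 34380, 27087 and 32284 peaks in the same order, so replicate 1 was the shorter in aged cells. The part of list length in these calls was not tested. As many as 391 members (42.7%) were called in the 2 replicate 2 libraries and in neither replicate 1 library, 14 were called in the 2 replicate 1 libraries alone, and 81 were called in all 4. Regions typical of GMPs, which were 22046 regions called in 2 or more GMP libraries and in no HSC, MEP or CLP library, members included, moved the same way: 2.93% and 8.03% of them were called in young MPP3 replicates 1 and 2, and 1.65% and 5.65% in aged MPP3 replicates 1 and 2. Regions called in all 8 HSC libraries moved little (95.3%, 92.6%, 89.2% and 91.5% in the same order). Whether the replicate 2 sorts held cells of another stage was not tested. Results are therefore also given with MPP3 read from the replicate 1 libraries (133 regions) or from the replicate 2 libraries (628 regions), an alternative added after the data were seen.

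**Figure D1:**
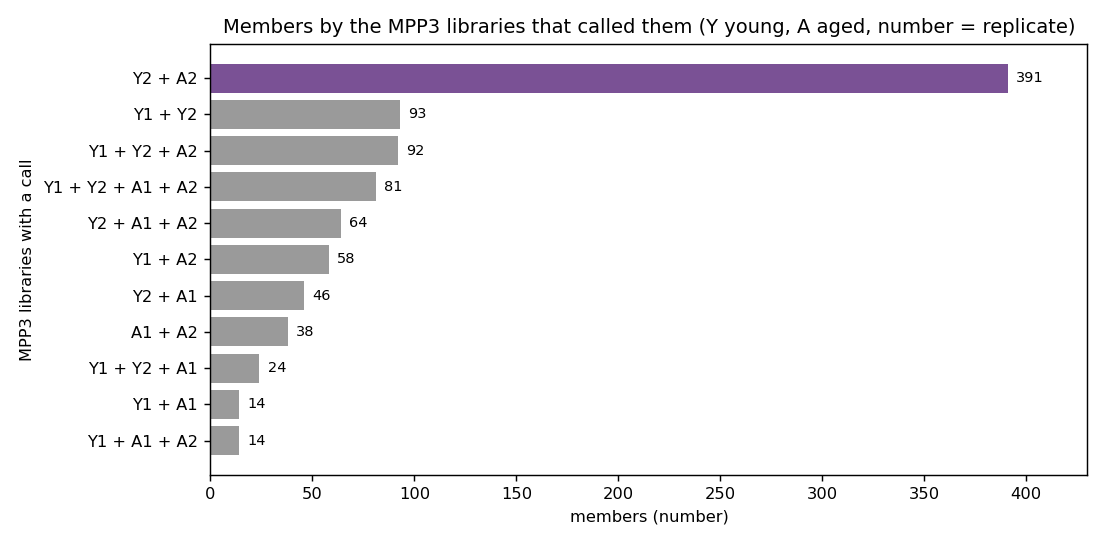
Number of members (horizontal axis) by the MPP3 libraries that called them (vertical axis; Y young, A aged, with the replicate number). The bar for the 2 replicate 2 libraries alone, 391 members, is longer than any other; the next holds 93.

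In GMPs the members were called almost throughout, with 815 (89.1%) and 882 (96.4%) in the young libraries and 872 (95.3%) and 884 (96.6%) in the aged libraries. GMP peaks at members were strong and MPP3 peaks were weak: the median fold enrichment of called members lay between 13.3 and 13.6 in the 4 GMP libraries and between 6.33 and 6.86 in the 4 MPP3 libraries. As a percentile among all called regions of the same library, the median member stood between 64.4 and 66.5 in GMPs but between 22.5 and 29.97 in MPP3. Thus the members belonged to the upper part of the GMP lists and to the lower part of the MPP3 lists. Most members (540) were called in exactly 2 MPP3 and in all 4 GMP libraries, and 64 were called in all 8.

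Regions on both sides of the rule had similar strength. The 640 members with exactly 2 MPP3 calls had a median fold enrichment of 6.62 in MPP3 and 13.3 in GMP, and the 1838 regions that missed the rule with 1 MPP3 call had 6.18 and 10.9. A further 50 regions missed it with 1 GMP call. Another 744 regions met the MPP3 and GMP criteria but were called in 1 excluded library, which was an HSC library for 376 regions, a CLP library for 344 and a MEP library for 24.

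The first question was how far the members were already called in the other multipotent progenitors, whose calls the rule did not use. In MPP1 they were called in 93 (10.2%), 131 (14.3%), 173 (18.9%) and 77 (8.42%) cases in young replicates 1 and 2 and aged replicates 1 and 2, a mean of 12.95% ± 4.68 (SD, n = 4). MPP2 had 179 (19.6%), 183 (20.0%), 366 (40.0%) and 220 (24.0%) in the same order, a mean of 25.9% ± 9.61 (SD, n = 4). MPP4 had 234 (25.6%), 487 (53.2%), 246 (26.9%) and 285 (31.1%), a mean of 34.2% ± 12.9 (SD, n = 4). Every MPP2 and MPP4 library exceeded every MPP1 library, while MPP2 and MPP4 overlapped. The highest MPP1 library (18.9%) was close to the lowest MPP2 library (19.6%).

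The share in MPP2 exceeded that in MPP1 by 12.95 percentage points and that in MPP4 exceeded MPP1 by 21.3 points (two-sided exact permutation test, p = 0.0286 for both, the smallest that 4 against 4 libraries allow, adjusted p = 0.0429 over 3 pairs). MPP4 and MPP2 differed by 8.31 points, which was within the spread of the libraries (exact permutation p = 0.429, adjusted p = 0.429). The rule did not read these calls, but it removed every region called in an HSC library, and of the regions called in all HSC libraries, MPP1 libraries called 98.1% to 99.4%, MPP2 libraries 93.4% to 96.0% and MPP4 libraries 89.7% to 91.4%. The part of this exclusion in the differences from MPP1 was not tested. With peaks of a −log10 q of at least 5 the differences were 12.96 and 20.8 points; MPP4 kept the smallest p the design allows (exact permutation p = 0.0286) and MPP2 did not (exact permutation p = 0.0571), and since a single smallest p cannot pass over 3 pairs, both adjusted p-values became 0.0857. With MPP3 read from the replicate 1 libraries the means were 28.4% ± 12.1 in MPP1, 57.9% ± 15.9 in MPP2 and 49.1% ± 11.9 in MPP4 (SD, n = 4), so MPP2 then stood above MPP4 and neither difference from MPP1 passed (exact permutation test, adjusted p = 0.0857 for MPP2 and 0.171 for MPP4). With the replicate 2 libraries the means were 11.9% ± 4.11, 25% ± 9.41 and 35.4% ± 15.7 (SD, n = 4), and both differences from MPP1 passed (exact permutation test, adjusted p = 0.0429).

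**Figure D2:**
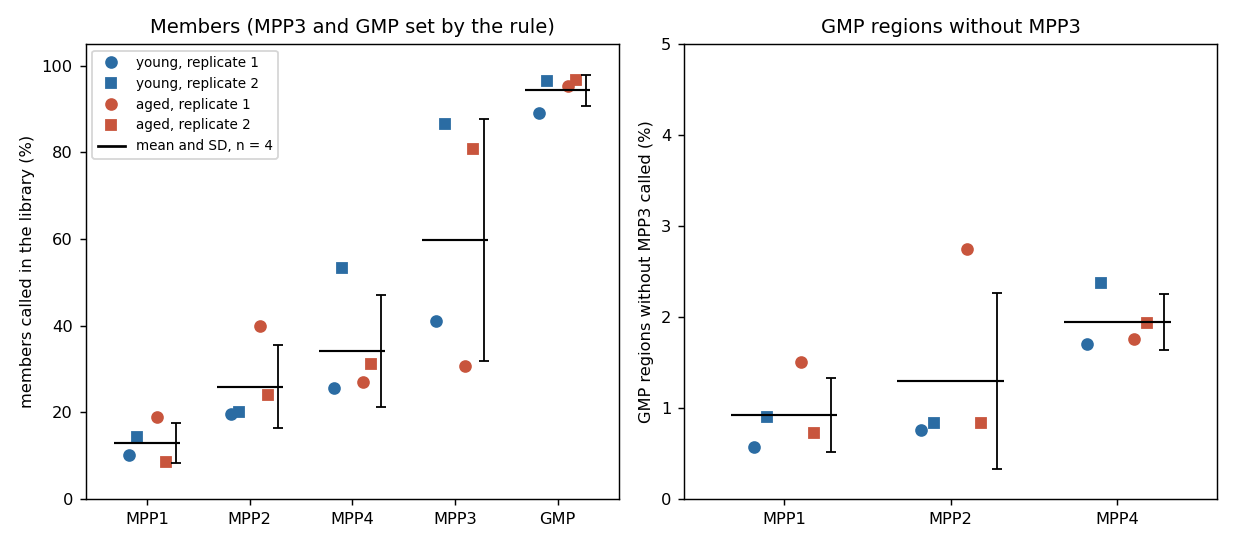
Left, share of the 915 members called in each library (vertical axis, %), where MPP3 and GMP were set by the rule; right, share of the 19293 GMP regions without an MPP3 call, on a shorter axis. Symbols are single libraries and bars are the mean and SD of 4; members lay between 8.42% and 53.2% in the MPP1, MPP2 and MPP4 libraries and the GMP regions without MPP3 between 0.575% and 2.75%.

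The members were then set against the 19293 regions that met the same GMP and exclusion criteria but were called in no MPP3 library. Over the 12 MPP1, MPP2 and MPP4 libraries, members were called at 24.4% ± 12.6 and the GMP regions without MPP3 at 1.39% ± 0.720 (SD, n = 12). Members were higher in 12 of 12 libraries, by 23.0 percentage points on average (two-sided exact sign-flip permutation test, p = 0.000488, the smallest it can give). The sets were split by their MPP3 calls, so the test shows only that calls in MPP3 went with calls in the other MPP fractions. GMP peaks were weaker in the regions without MPP3 (median fold enrichment of 7.95 against 12.9), and the part of peak strength in this difference was not tested. At a GMP fold enrichment of 10 to 16, a range chosen after the data were seen, 277 members were called at 24.9% ± 13.6 and 4228 of the other regions at 1.36% ± 0.893 (SD, n = 12). The libraries high for members were also high for the GMP regions without MPP3: aged MPP2 replicate 1 reached 2.75% against 0.757% to 0.840% in the other MPP2 libraries, and young MPP4 replicate 2 reached 2.37% against 1.70% to 1.94%.

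Region by region, 115 members (12.6%) were called in 2 or more of the 4 MPP1 libraries, 267 (29.2%) in MPP2 and 334 (36.5%) in MPP4. Of all 105005 regions, 35% were so called in MPP1, 32.6% in MPP2 and 33.3% in MPP4, so members were below this background in MPP1 and near it in MPP2 and MPP4; all regions include those open in HSCs, which the rule left out. In all, 474 members (51.8%) were called in 2 or more libraries of at least 1 of the 3 fractions, and 167 (18.3%) were called in none of the 12 libraries. These combined counts and the patterns below were not compared with all regions. The members called in MPP4 alone (171) outnumbered those in MPP2 alone (95), in MPP2 and MPP4 (93), in all 3 (50), in MPP1 and MPP2 (29), in MPP1 and MPP4 (20) and in MPP1 alone (16). The order of MPP4 and MPP2 rested on the MPP3 libraries used, as given above.

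The motif content of these groups differed, which is a description over regions and not a test. Of the 441 members that no other MPP fraction called in 2 or more libraries, 28.6% held the C/EBP motif, 16.8% the AP-1 motif and 10.4% the GATA motif AGATAA. Members called in MPP4 alone held the AP-1 motif in 33.9%, C/EBP in 22.2% and GATA in 10.53%. Members called in MPP2 alone held the GATA motif in 25.3%, AP-1 in 17.9% and C/EBP in 13.7%. The 93 members called in MPP2 and MPP4 held AP-1 in 39.8% and the PU.1/ETS motif in 36.6%, the latter against 17.5% of the members called in none.

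**Figure D3:**
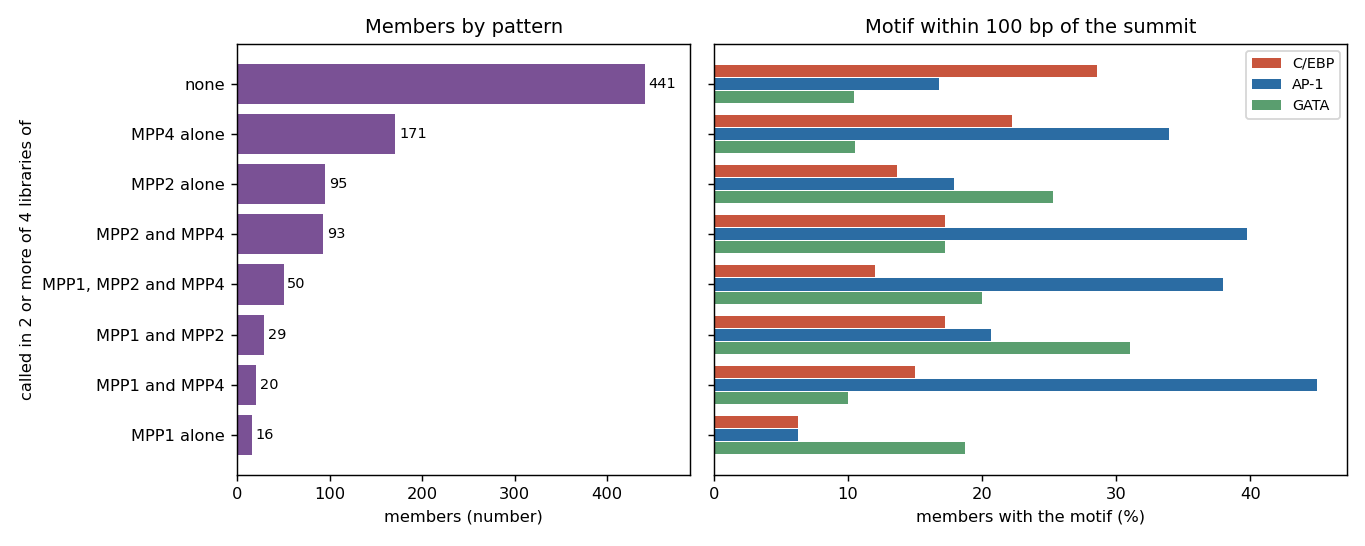
Left, number of members by the fractions among MPP1, MPP2 and MPP4 with a call in 2 or more of 4 libraries; right, percentage of each group with a C/EBP, AP-1 or GATA motif within 100 bp of the median summit. C/EBP is most frequent in the 441 members of no such fraction, AP-1 in groups with MPP4 and GATA in groups with MPP2 but not MPP4; groups hold 16 to 441 members.

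Across all members, 22.7% held the C/EBP motif, 24.2% the AP-1 motif and 13.99% the GATA motif, beside 13.2%, 11.3% and 10.3% of all regions with the same window. The GMP regions without MPP3 held C/EBP in 27.5% and AP-1 in 10.52%. Conversely, the 203 regions called in 2 or more MPP3 libraries but in no GMP, HSC, MEP or CLP library held C/EBP in 4.43%, AP-1 in 31.5% and GATA in 24.1%. The share of members thus lay between these sets for both motifs. Both stood in the same window in 47 members (5.14%), where the separate shares would give 5.49% if they were independent, and in 1.51% of all regions. The 2389 regions called in MPP3, GMP and HSC but in no MEP or CLP library also had a high AP-1 share (27.5%) but a C/EBP share of 11.7%.

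The C/EBP share moved with the MPP3 library. It was 34.5% in the 391 members called by the replicate 2 MPP3 libraries alone and 13.9% in the 524 members with at least 1 replicate 1 call, the latter close to all regions. AP-1 was at 22.5% and 25.4% in these groups, and GATA at 11.0% and 16.2%. Within the 133 regions that both replicate 1 libraries called, C/EBP was at 12.03%, AP-1 at 21.8% and GATA at 24.1%. The AP-1 share therefore stayed near 2 times that of all regions whichever MPP3 libraries were used, and the C/EBP share did not. The other motifs were nearer to the catalogue: RUNX (TGTGGT) was at 30.4% of members against 25.5% of all regions, PU.1/ETS at 22.3% against 19.5%, the ETS core at 40.0% against 32.6%, and IRF (GAAANNGAA) at 6.45% against 8.26%.

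**Figure D4:**
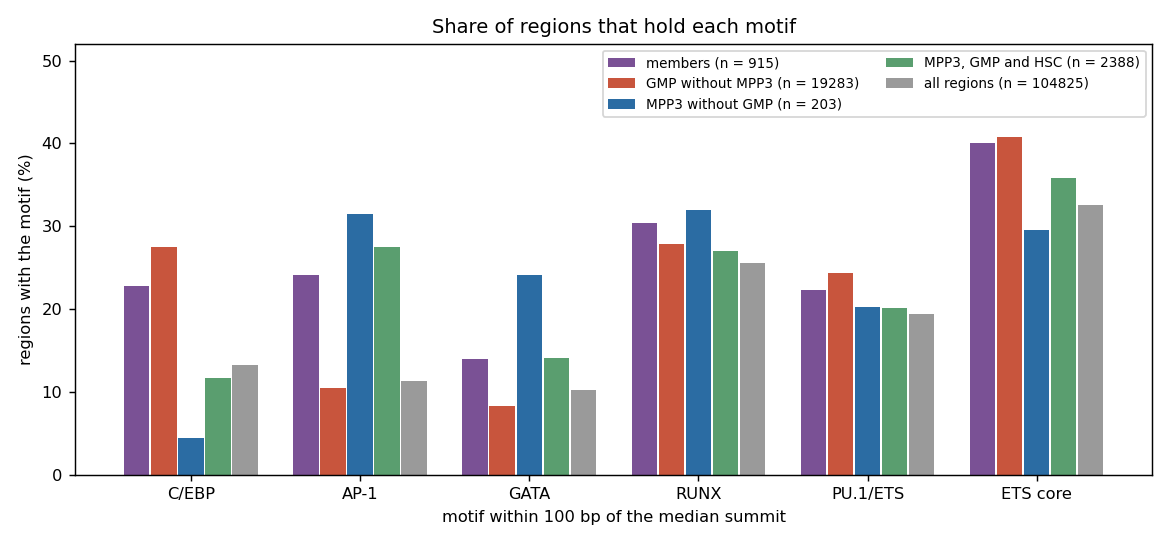
Percentage of regions (vertical axis) with each motif within 100 bp of the median summit, for members and 4 comparison sets, with the number of regions in the legend. Members stand at 22.7% for C/EBP and 24.2% for AP-1, beside 27.5% and 10.52% in GMP regions without MPP3 and 4.43% and 31.5% in MPP3 regions without GMP.

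Members lay mostly away from promoters. In the GENCODE annotation of protein-coding genes, 405 (44.3%) were between genes, 396 (43.3%) in introns, 75 (8.20%) at promoters (1000 bp before to 100 bp after a start site), 20 (2.19%) in coding exons and 19 (2.08%) in UTRs. Promoters made up 12.1% of all regions but 3.42% of the GMP regions without MPP3, so members lay between both. The median distance to the nearest start site was 18037 bp, against 18733 bp over all regions, and the median width of a member was 374 bp. Chromosome 11 held 102 members (11.1%) but 5.97% of all regions and 6.85% of the GMP regions without MPP3, and it was singled out after its value was seen. Chromosome 19 held 4.59% of members against 2.82% of all regions, and chromosome 3 held 3.17% against 5.65%; none of these was tested.

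The strongest members were those with the highest lowest percentile of fold enrichment over the 8 MPP3 and GMP libraries. The first was the Ppm1a region above, 29294 bp before the start site of Ppm1a, which encodes a metal-dependent protein phosphatase. Its fold enrichment was 8.49 and 11.9 in young MPP3, 8.45 and 10.2 in aged MPP3, 21.7 and 19.7 in young GMP and 17.3 and 22.9 in aged GMP. It was also called in both aged MPP2 libraries (10.1 and 9.41) and in replicate 2 of young and aged MPP4 (9.11 and 9.65). All GMP values lay above all values of the other fractions.

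The Bahcc1 region lay 13847 bp before its gene, had 8.72, 11.2, 8.11 and 9.82 in the MPP3 libraries and 18.5, 20.6, 19.7 and 17.1 in the GMP libraries, and was called in 10 of the 12 MPP1, MPP2 and MPP4 libraries with values of 6.58 to 10.3. The Slc24a3 region, in an intron of this sodium, potassium and calcium exchanger gene, had 7.96, 12.97, 10.1 and 8.56 in MPP3 and 20.1, 20.3, 23.7 and 23.8 in GMP. In the Poc1b region, 25200 bp before a gene for a centriole protein, MPP3 values were 8.26, 8.15, 9.35 and 13.3 and GMP values 16.04, 17.8, 16.5 and 18.8, with calls in all 4 MPP2 and all 4 MPP4 libraries. The other 6 of the 10 strongest were nearest to Rbbp6, Scand1, Kctd3, Myo1d, Cnih3 and Pitx1, and their median fold enrichment ran from 8.24 to 9.53 in MPP3 and from 9.88 to 23.9 in GMP. Each of the 10 was called in at least 1 library of MPP1, of MPP2 and of MPP4. Of all members, 33.2%, 53.6% and 67.0% were called in 1 or more libraries of these fractions, and 81.7% in any of them. Most members thus had a call beyond MPP3 and GMP, and these shares were not compared with all regions.

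Regions of the patterns with 1 other fraction were named by the same measure. For MPP2 alone they were the Scand1 region, an intronic region nearest to Zmynd8 and the promoter of Myo18a, and for MPP4 alone a region nearest to Tas2r143 and introns of Camk2b and Rasa2. The Tas2r143 region was called in all 4 MPP4 libraries (6.75, 9.81, 10.4 and 8.71) and had GMP values of 27.6, 33.3, 31.9 and 31.9. No member of the MPP1 pattern alone was called in all 8 MPP3 and GMP libraries.

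Genes of the lists were looked up by their nearest region. Of 95 genes in the 8 myeloid lists, 11 (11.6%) were nearest to a member, beside 844 of all 21840 protein-coding genes (3.86%). GMP regions without MPP3 were nearest to 76 of the same 95 genes, to 11 of 15 stem cell genes, to 10 of 18 lymphoid genes and to 8780 of all genes (40.2%). Of the other lists, 2 of 15 stem cell genes (13.3%) and 0 of 18 lymphoid genes had a member. The share of the stem cell list was thus as high as that of the myeloid lists, although it rests on 2 genes. The name myeloid-primed fits some of the neighbouring genes but not these, and the set is called here by its 2 fractions. The nearest gene need not be the gene that a region acts on.

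Among the transcription factors, a region 54282 bp after the start site of Irf8, a factor required for monocytes and dendritic cells, was called in young MPP3 replicate 2 (6.37) and in both aged MPP3 libraries (7.18 and 7.88), and had 19.3, 18.2, 20.6 and 17.9 in GMP. Young MPP4 replicate 2 (8.76) and aged MPP4 replicate 1 (4.23) also called it. A region 2724 bp before Cebpe, which drives late granulocyte maturation, had 8.82 in aged MPP2 replicate 1 and weaker calls elsewhere, with 5.43 in young MPP4 replicate 1, 5.02 and 5.50 in young MPP3, no call in aged MPP3, and 4.34, 4.60, 5.78 and 5.59 in GMP. The region nearest to Cebpd lay 99166 bp from its start site, in an intron of Spidr, with 5.84 and 6.80 in young MPP3, no call in aged MPP3, 6.00 and 6.19 in aged MPP4 and 5.45, 6.15 and 6.97 in 3 GMP libraries.

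By list, a member was nearest to 3 of 8 primary granule genes, 3 of 12 myeloid transcription factors, 1 of 10 dendritic cell genes, 1 of 12 myeloid cytokine receptors, 1 of 14 late neutrophil genes, 1 of 14 innate sensing genes, 1 of 15 monocyte and macrophage genes and 0 of 10 eosinophil, basophil and mast cell genes. Mpo, which encodes myeloperoxidase, had a member 3283 bp before its start site (chr11:87790130-87790466), called in MPP3 replicate 2 of each age (7.93 young and 7.15 aged) and at 11.6, 13.9, 13.3 and 10.51 in GMP. A further Mpo member 14955 bp before the gene had 10.1 in young MPP3 replicate 1, no call in young replicate 2, 7.77 and 6.18 in aged MPP3, and 6.12, 6.17 and 8.01 in 3 GMP libraries. The promoter of Ms4a3 (chr19:11640719-11641153), a gene expressed in granulocyte-monocyte progenitors, was called in MPP3 replicate 2 alone (9.79 young and 6.42 aged) and had 16.8, 21.7, 19.7 and 21.4 in GMP. The Ctsc region, 34834 bp before the gene of the protease that activates granule serine proteases, showed the same MPP3 pattern (6.34 and 6.42) and 23.9, 23.6, 22.3 and 23.5 in GMP. It was also called in young MPP4 replicate 2 (7.51) and aged MPP4 replicate 1 (7.94).

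Genes of receptors and adhesion followed. The region 11681 bp before Itgam, which encodes CD11b, had no call in young MPP3 replicate 1, 6.27 in young replicate 2, 6.87 and 8.03 in aged MPP3, and 14.2, 17.4, 15.2 and 19.1 in GMP. It was called in all 4 MPP4 libraries (7.28, 9.84, 11.3 and 7.47). The Tlr2 region, 3652 bp before this receptor of bacterial lipoproteins, and an intronic region of Il1r1 (chr1:40294835-40295157), the receptor of interleukin-1, were called in MPP3 by replicate 2 of each age alone, with 6.82 and 8.28 for Tlr2 and 9.06 and 5.35 for Il1r1. In GMP the Tlr2 region stood at 20.0, 20.2, 19.7 and 19.5, and the Il1r1 region at 16.2, 19.9, 18.7 and 16.2.

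The promoter of Itgax (chr7:128129400-128129650), which encodes CD11c, differed from these: it was called in all 4 MPP4 libraries (10.9, 8.27, 6.55 and 8.96), in both young MPP3 libraries (6.90 and 7.80) and in 2 GMP libraries (5.38 and 5.98). It was also called in 2 MPP1 libraries and 1 MPP2 library. The Ncf1 member, near the gene of a subunit of the phagocyte oxidase, had values of 3.42 to 4.93 in GMP, among the weakest of the listed regions. Of the 12 members near myeloid list genes, 5 (those of Mpo at 3283 bp, Ms4a3, Ctsc, Tlr2 and Il1r1) were called in MPP3 by the replicate 2 libraries alone (41.7%, beside 42.7% of all members), and 4 (Cebpd, Cebpe, Ncf1 and Itgax) by the young libraries alone (33.3%, beside 10.2% of all members).

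Outside the myeloid lists, an intronic region of Mecom (chr3:30234043-30234354), which encodes the stem cell factor EVI1, was called in all 8 libraries, with 10.6 and 6.86 in young MPP3, 7.92 and 8.02 in aged MPP3 and 6.59, 8.47, 12.8 and 10.8 in GMP, in 3 MPP1 and 2 MPP2 libraries, and in no MPP4 library. A region in an intron of Prdm16 was weak, with 4.74 to 8.68 in GMP.

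**Figure D5:**
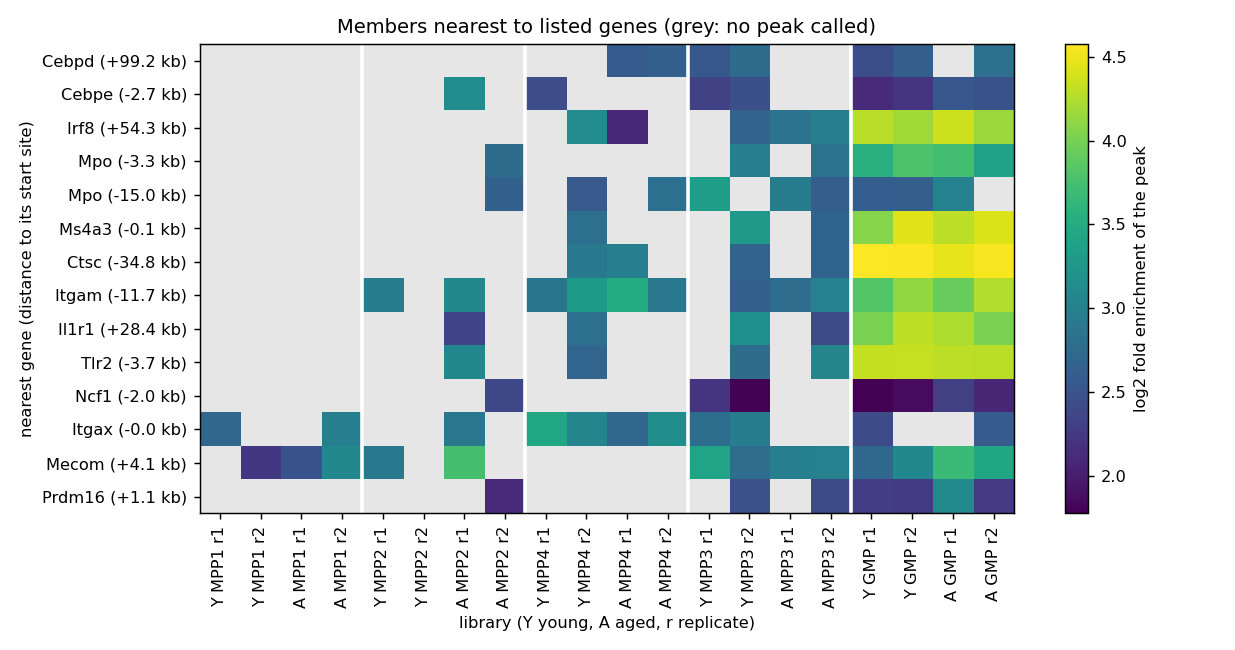
Log2 fold enrichment of the peak in each of 20 libraries (columns, by fraction) for the 14 members nearest to genes of the myeloid and stem cell lists (rows, with the distance to the start site); grey means that no peak was called. The GMP columns are filled for most rows, whereas the MPP3 columns are filled for replicate 2 more often than for replicate 1.

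Several genes had more than 1 member. Pde4d, a cyclic AMP phosphodiesterase, had 4, all intronic, with median fold enrichments of 5.59 to 7.09 in MPP3 and 9.30 to 16.95 in GMP. Nrg4, Cd47, Agtpbp1, Sept9, Snx29 and Tnrc6b had 3 each. The 3 Nrg4 members, at its promoter and in introns, had median fold enrichments of 21.5, 25.2 and 23.4 in GMP, above the median of 12.9 over all members, and were called in MPP3 by 2 libraries each. Cd47, which encodes the signal that protects cells from phagocytosis, had 3 members 77065 to 103840 bp after its start site, 1 of them called in all 4 MPP2 libraries and 1 in all 4 MPP4 libraries. In total 63 genes had 2 or more members.

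The next comparison asked whether members were called more often in aged cells. Aged libraries called 13 more members than young libraries in MPP1, 112 more in MPP2 and 29.5 more in GMP, while in MPP3 the number fell by 74 and in MPP4 it fell by 95 (differences of the means of 2 libraries). Averaged over these 5 fractions the number fell by 2.9 members in aged libraries, within the spread of the libraries (p = 0.953, exact permutation of age within each fraction, two-sided). This direction did not hold: the difference turned to 0.7 at a −log10 q of at least 10 and to 3.6 with equal peak numbers. It also turned in 8 of 36 settings without 1 library, which ran from -34.9 to 37.6. Over MPP1, MPP2 and MPP4, whose calls the rule did not use, aged libraries called 10 more members (p = 0.843, exact permutation of age within each fraction), an alternative added after the data were seen. Within a single fraction, 2 against 2 libraries are too few for an exact permutation test to pass. The 2 replicates differed more than the ages in MPP3, where replicate 1 and replicate 2 lay 415 members apart in young and 457 in aged cells.

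Each region was also tested for age on its own, by an exact conditional test of calls in aged against young libraries within fractions. Of the 229 members with enough calls for this test to reach a p of 0.05, 4 (1.75%) were called more in aged and 5 (2.18%) less in aged cells at an unadjusted p of up to 0.05. Among all 18638 testable regions 3.28% were called more and 2.99% less in aged cells. The members' counts are too few to be set above or below this background: with peaks of a −log10 q of at least 5 they were 8 and 8. Members called more numbered 8 without aged MPP2 replicate 2, 1 without aged MPP3 replicate 1 or 2 or aged GMP replicate 1, and 2 without aged GMP replicate 2. Members called less numbered 9 without young MPP2 replicate 2 or aged MPP4 replicate 2, and 2, 1 and 3 without young MPP3 replicate 1, young MPP3 replicate 2 and young GMP replicate 2. No member passed after Benjamini-Hochberg adjustment (the smallest adjusted p was 0.485, exact conditional test), and neither did any other region, 0% in all.

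The members with the smallest unadjusted p show what these differences consist of. A region 5764 bp before Bmpr1a (chr14:34508198-34508705), a receptor of bone morphogenetic proteins, was called in 8 aged and 1 young libraries, with 8.54 and 7.17 in aged MPP3 and 13.6 and 9.93 in aged GMP and no call in young MPP3 or GMP (exact conditional p = 0.00463). A region near Nedd4, a ubiquitin ligase, was called in 6 aged and 0 young libraries (exact conditional p = 0.0139), and a region near Galnt1 in 7 aged and 2 young libraries (exact conditional p = 0.0278). In the other direction, an intronic region of Ildr1 (chr16:36709478-36709844) was called in 2 aged and 8 young libraries (exact conditional p = 0.00926), the promoter of Phf2, which encodes a histone demethylase, in 0 aged and 5 young libraries (exact conditional p = 0.0278), and an intronic region of Kcnk13, a potassium channel, in 2 aged and 7 young libraries (exact conditional p = 0.0417). All but the Kcnk13 region were called in exactly 2 GMP libraries, both of 1 age.

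Finally, the rule was applied to the libraries of 1 age and read in those of the other age, which it had not used. The rule on young libraries (both MPP3, both GMP, and no HSC, MEP or CLP library) chose 365 regions. In aged libraries these were called at 51.8% ± 18.99 in MPP3 and 96.6% ± 0.194 in GMP (SD, n = 2), but at 5.82% ± 1.74 in HSC (SD, n = 4), 1.23% ± 0.969 in MEP and 12.1% ± 5.81 in CLP (SD, n = 2). The MPP3 and GMP libraries exceeded the excluded fractions by 67.9 percentage points (exact permutation test of 4 against 8 libraries, p = 0.00202, the smallest it can give). These regions had been chosen for the same contrast at the other age, so the test shows only that the calls repeated between ages. All regions differed by 17.8 points between the same libraries, and after this share was taken off in each library the difference was 50.2 points (exact permutation p = 0.00202), an alternative added after the data were seen. Aged MPP1 called 27.9% ± 12.01 of the 365 regions, aged MPP2 48.9% ± 11.8 and aged MPP4 49.2% ± 3.68 (SD, n = 2), beside 34.4%, 31.9% and 31.4% of all regions, and 27.4% of all regions in aged MPP3.

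The rule on aged libraries chose 462 regions, which in young libraries were called at 70.7% ± 11.2 in MPP3 and 91.0% ± 4.13 in GMP (SD, n = 2), against 21.6% ± 8.54 in HSC (SD, n = 4), 1.08% ± 0.306 in MEP and 15.3% ± 6.28 in CLP (SD, n = 2). Young MPP1 called 39.3% ± 5.66 of them, young MPP2 48.6% ± 0.153 and young MPP4 58.7% ± 10.7 (SD, n = 2), beside 31.99%, 29.8% and 31.9% of all regions, and 31.8% of all regions in young MPP3. Differences of MPP1, MPP2 and MPP4 from MPP3 were not tested. The MPP3 and GMP libraries exceeded the excluded fractions by 65.9 points (exact permutation test, p = 0.00202), and 47.97 points after the share of all regions in each library was taken off (exact permutation p = 0.00202). This contrast, too, was the one for which the regions had been chosen. No call in any HSC, MEP or CLP library of the other age was found for 235 of the 365 regions (64.4%) and 186 of the 462 (40.3%). Thus the calls carried over to libraries that the rule had not used, more fully in GMP than in MPP3. In aged libraries the MPP3 share (51.8%) was near those of MPP2 and MPP4 (48.9% and 49.2%), so it was not particular to MPP3. In young libraries it was 70.7% in MPP3 against 48.6% in MPP2 and 58.7% in MPP4. The complete absence from the excluded fractions held for a part of the regions. Young HSC lists ranged from 27856 to 38756 peaks and aged HSC lists from 31081 to 32185.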

How the data were processed

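ATAC-seq peak lists of 36 libraries from 8 sorted fractions of young and aged mice were used. Per the study's methods and the labels, the authors aligned reads to mm10 with Bowtie2, subsampled the mapped reads to equal numbers with SAMtools and called peaks with MACS2 (version 2.2.6), separately for each library. The deposited lists give for each summit an integer score, a fold enrichment (a ratio over the local background) and the −log10 of the p-value and q-value, and the deposited q-values all have a −log10 above 3. Lists still differ in length, and calls may depend on signal quality as well as on accessibility, which was not tested. No count test could be made from these lists.

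Peaks (1204561) were merged where they overlapped by at least 1 bp, and a library called a region if any of its peaks lay in it. The nearest gene and class came from GENCODE vM21 protein-coding genes, and sequences from the RefSeq copy of GRCm38. The 15 motifs were searched in either orientation, up to 100 bp from the median summit. Tests were exact permutation tests over libraries and, per region, an exact conditional test stratified by fraction with Benjamini-Hochberg adjustment over all 18638 testable regions. Python 3.11.15, NumPy 2.4.6 and SciPy 1.17.1 were used, and the merging, the rule and the age test were tested on simulated data.

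Named regions were the 10 strongest in all 8 libraries, for each listed gene the member called in most MPP3 and GMP libraries, ties by fold enrichment (a further Mpo member with as many such calls is named besides), the 5 genes with most members, the 3 smallest age p-values in each direction, and the 3 strongest for each single further MPP fraction. Snx29, Tnrc6b and chromosomes 3, 11 and 19 were singled out after their values were seen. The members, lists and tests were chosen with earlier results of these data known. Alternatives comprised stricter q-values, other overlap rules, equal peak numbers, a replicate block and leaving out each library. A listed gene and its list are not reported here.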

Additional observations from a re-analysis of the deposited data

Results flagged for a closer look

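In MPP2, aged replicate 1 stood apart from the other 3 libraries in its calls of GMP regions without MPP3 (2.75% against 0.757%, 0.840% and 0.840%). Its gap to the nearest library was 0.958 of the range of the 4, above the value of 0.83 that chance passes in about 1 of 20 groups. The same library called the most members in MPP2 (366, 40.0%) and had the longest MPP2 list (37898 peaks against 31291 to 32740), and the part of list length in these calls was not tested. For the members themselves no fraction passed this value: the ratio was 0.781 in MPP2, 0.798 in MPP4 and 0.826 in GMP.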

How the results depend on the processing

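The number of members was 915 and depended most on the libraries and on the length of the lists. With equal peak numbers in all MPP and GMP libraries (27087 each) it was 320, with MPP3 from the replicate 1 libraries 133, and over the settings that leave out 1 library it ran from 385 (without young MPP3 replicate 2) to 1047 (without young HSC replicate 2). Without aged MPP3 replicate 2 it also moved by over 1.5 times.

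The MPP2 and MPP4 excess over MPP1 kept its direction under every alternative tried. A pair at the smallest p of 4 against 4 libraries passes adjustment over 3 pairs only if another pair is there too. At a −log10 q of at least 5 and 10, MPP2 (12.96 and 15.1 points) left that p and MPP4 (20.8 and 21.7 points) kept it, and with the replicate 1 libraries MPP4 (20.7 points) left it and MPP2 (29.5 points) kept it, so neither passed. Leaving out 1 library gave 8.25 to 19.8 points for MPP2 and 14.9 to 25.2 for MPP4, and neither passed without young HSC replicates 2 or 4, aged HSC replicate 1, young MPP1 replicates 1 or 2, aged MPP1 replicate 2, aged MPP2 replicates 1 or 2, or young CLP replicate 1 (adjusted p of up to 0.171 by exact permutation). MPP4 minus MPP2 turned to -8.83 points with the replicate 1 libraries and otherwise ran from 1.97 to 13.01 without 1 library. The cause was not tested.

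The labels give no batch or sort date, so whether replicate numbers pair the samples could not be settled. By replicate number, the correlation of deviations between ages was 0.0866 in MPP3 over all regions, 0.236 over members, and below 0.1 in the other fractions. With pairs by replicate number the replicate block gave 12.95 and 21.3 points with an exact p of 0.125, the smallest that 4 pairs allow, so that fit could not pass, and an age difference of -2.9 members (exact sign-flip p = 0.926).

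The age difference in members called turned to 0.7 at a −log10 q of at least 10, to 3.6 with equal peak numbers, to 4.3 with the replicate 1 and 4 with the replicate 2 libraries, to 10 over MPP1, MPP2 and MPP4 alone, and ran from -34.9 to 37.6 without 1 library, none of which passed. Members called more in aged cells numbered 8 and 1 at a −log10 q of 5 and 10, 2 with 50% coverage, 2 with equal peak numbers, 0 with either MPP3 replicate, and 1 to 8 without 1 library. Those called less numbered 8 at a −log10 q of 5, 1 with equal peak numbers, 0 and 1 with the replicate 1 and 2 libraries, and 1 to 9 without 1 library. None passed adjustment under any of these.

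The excess over GMP regions without MPP3 (20.4 to 33.4 points without 1 library) and the carry-over between ages (58.5 to 79.9 and 60.4 to 72.0 points) passed in every alternative tried. With equal peak numbers the excess was smaller, at 15.6 points. The carry-over was then 68.5 points for regions chosen in young and 59.2 for those chosen in aged libraries. Within 50 bp of the summit C/EBP was at 14.2%, AP-1 at 16.2% and GATA at 8.96% of members, as a shorter window holds fewer matches.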

Other observations

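Of the 840 members away from promoters, 479 (57.0%) were nearest to a gene whose promoter region was called in 2 or more HSC libraries, beside 58.2% of the GMP regions without MPP3 and 55.8% of all such regions. The genes nearest to members thus had a promoter called in HSCs about as often as other genes with a region nearby, although the members themselves were called in no HSC library. The median GC content of the member windows was 49.8%, as in all regions.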
